A study of Mus musculus with 12 samples.

Results

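The transition zone is the short segment at the base of the primary cilium, where linkers between the microtubule doublets and the membrane form a gate that sorts proteins entering and leaving the organelle. Its proteins fall mainly into the MKS module (B9 domain proteins, tectonics and transmembrane partners) and the NPHP module, with CEP290 bridging the axoneme and the membrane. Inherited loss of these proteins gives Joubert and Meckel syndromes, in which the hindbrain and the Hedgehog response of the neural tube are affected.

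The genes were chosen by name, as 10 Ensembl identifiers. They were Cep290 (ENSMUSG00000019971), Rpgrip1l (ENSMUSG00000033282), Mks1 (ENSMUSG00000034121), Tctn1 (ENSMUSG00000038593), Tctn2 (ENSMUSG00000029386), Tctn3 (ENSMUSG00000025008), B9d1 (ENSMUSG00000001039), Tmem107 (ENSMUSG00000020895), Cc2d2a (ENSMUSG00000039765) and Ahi1 (ENSMUSG00000019986). Of these, 4 had a row among the 10481 genes of the count table, namely Cep290, B9d1, Tmem107 and Ahi1. The other 6 are not analysed here; the table had been filtered on expression by the authors, so the 4 genes followed are members that passed a filter on low values and do not stand for the whole gate.

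Ribosome footprints, the mRNA fragments that a ribosome shields from nuclease, were sequenced from whole brain and spinal cord of mouse embryos at E14.5. SMA embryos of the Taiwanese model of spinal muscular atrophy were Smn-/-; SMN2tg/0, and controls were Smn+/-; SMN2tg/0. Every embryo thus carried the human SMN2 transgene, and the controls had lost 1 copy of Smn. Each of the 4 groups (control brain, SMA brain, control spinal cord, SMA spinal cord) held 3 libraries, labelled as biological replicates, and numbers 1 to 3 below are the replicate numbers of the labels. A footprint count joins the amount of an mRNA with its load of ribosomes, and in whole tissue fewer cells of a type and less RNA per cell cannot be told apart.

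Total counts ran from 3683842 to 9117017 in brain and from 5162190 to 12793955 in spinal cord, where every SMA library was shallower than every control library. Control spinal cord library 1 stood apart from the other spinal cord libraries. Its level of Otx2, a transcription factor of the anterior brain, was 41.1 CPM (normalized counts scaled to a common library size) against 0.948 to 8.39 in the other 5 spinal cord libraries and 87.4 to 134 in brain. For dividing cells, 4 of 8 markers could be followed, and their sum was 274 CPM in that library, 55.0 to 97.0 in the other spinal cord libraries and 330 to 427 in brain. The trunk genes Hoxc6 and Hoxc8 summed to 131 CPM there, 150 to 211 in the other spinal cord libraries and at most 1.46 in brain. Apob, made by liver and yolk sac and the only one of 6 such markers followed, reached 911 CPM in SMA spinal cord library 1 and 294 CPM in control spinal cord library 3, against at most 33.6 CPM elsewhere. Neuronal markers (Elavl3 and Map2, 2 of 7 listed) and progenitor markers (Nes, Fabp7 and Slc1a3, 3 of 8 listed) summed to 2601 to 3901 and 628 to 901 CPM over all libraries. Between genotypes, Nes, an intermediate filament protein of neural progenitors, was lower in SMA in brain (log2 fold change -0.33, edgeR, unadjusted p 0.00934) and in spinal cord (-0.41, unadjusted p 0.00662), with no overlap in either tissue. Of the genes averaging 20 counts or more, 6.41% in brain and 7.16% in spinal cord had all SMA libraries below control. Slc1a3, a glutamate transporter of radial glia, was higher in SMA spinal cord (0.24, edgeR, unadjusted p 0.0474), and Apob was higher in SMA brain (2.65, unadjusted p 0.0280), where 1 library held most of it. The lowest adjusted p among these was 0.684. No marker of multiciliated, choroid plexus or blood cells could be followed by name, nor could Smn1. Over all genes, edgeR called 0 genes at an adjusted p below 0.05 in either tissue, with 529 genes in brain and 733 in spinal cord at an unadjusted p below 0.05, while DESeq2 called 0 and 57 after adjustment.

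**Figure D1:**
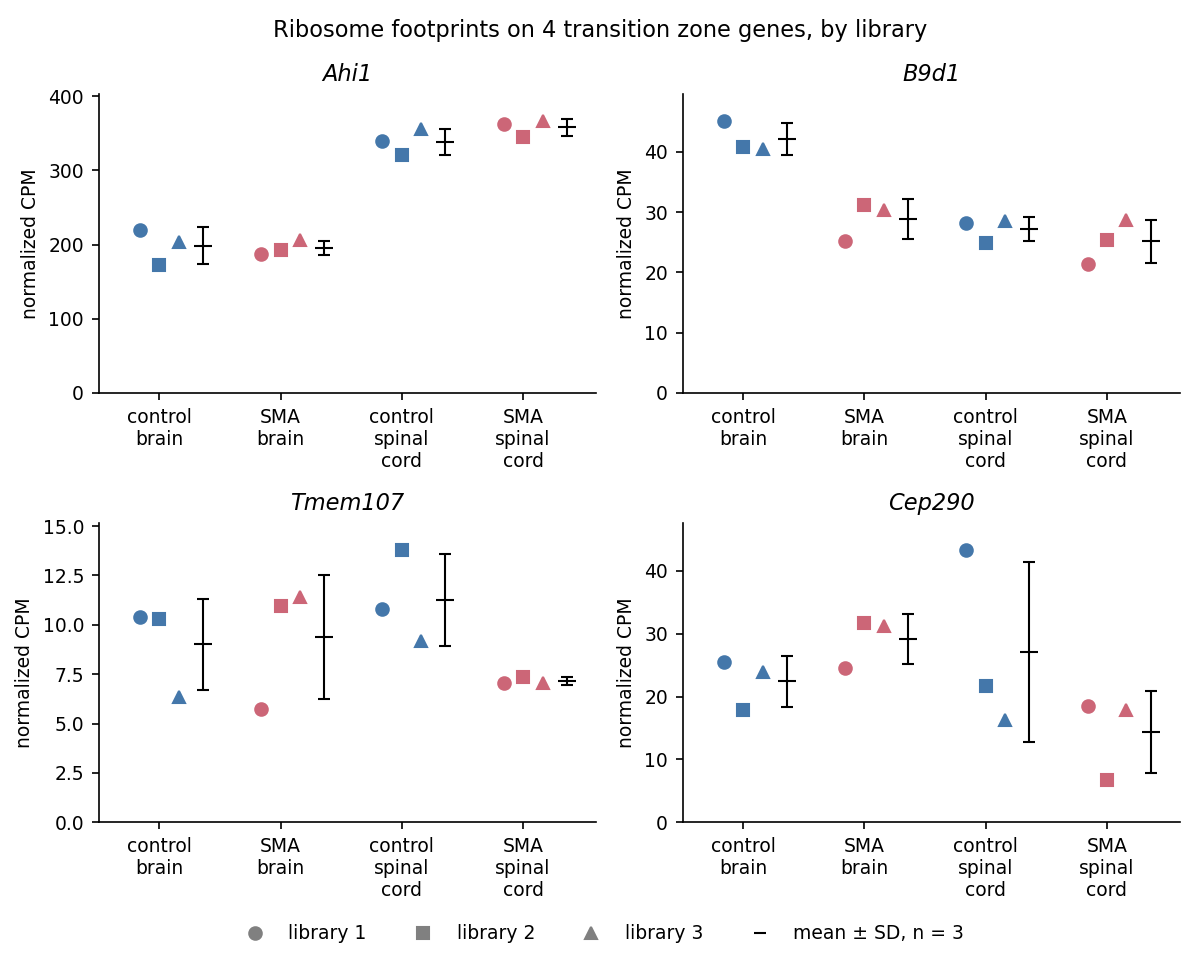
Normalized CPM (vertical axes, from 0) of Ahi1, B9d1, Tmem107 and Cep290 in each of the 12 libraries, normalized together, with control libraries in blue, SMA libraries in red and black bars for the mean ± SD of 3 libraries. Ahi1 separates the tissues, B9d1 is highest in the 3 control brain libraries, Tmem107 lies close together in SMA spinal cord, and Cep290 is highest in control spinal cord library 1.

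Ciliary genes are known to be regulated by RFX transcription factors, which bind an inverted repeat called the X-box. The windows from 250 bases before to 50 bases after each start site, taken from RefSeq (GRCm38.p6), were searched on both strands for GTTNCC, 2 bases of any kind and GGNAAC, with at most 1 mismatch in the 10 fixed positions. A match was held by 2.56% of all 32841 windows and by windows of 3 of the 4 measured genes, shown here because it is a sequence feature the choice of genes did not use. The 14 matched bases are in capitals, with 8 bases on each side.
Ahi1: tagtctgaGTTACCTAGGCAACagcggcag
B9d1: taccgtctGTTTCCAAGACAACcgagagcc
Tmem107: cggacgcaGTTACCATGGCAGCcgggcggc

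The Ahi1 match (chr10:20952568-20952581) had 0 mismatches, which 0.451% of all windows reached, and began 21 bases after the start site of 1 of the 2 Ahi1 windows. The B9d1 match (chr11:61505138-61505151) and the Tmem107 match (chr11:69070797-69070810) each had 1 mismatch and spanned the start site. In the Cep290 window the closest stretch had 3 mismatches. Among the 6 genes with no row, Tctn1, Mks1 and Tctn2 also held a match. These are matches of letters and say nothing of binding.

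In GRCm38.p6, Ahi1 spans chr10:20952232-21080429 and Cep290 chr10:100487548-100575671, while B9d1 lies at chr11:61505144-61512931 and Tmem107 at chr11:69070809-69073293. The last 3398 bases of the Cep290 span overlap the neighbouring gene 4930430F08Rik, and the lncRNA Gm20149 lies inside the Ahi1 span. The lncRNA B9d1os ends 57 bases before B9d1, and the small RNA gene Snord118 lies 132 bases beyond Tmem107. Whether counting used strand is not given in the sources used here, and the share of footprints from these neighbours was not tested.

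Levels of different genes were compared as RPKM, the normalized CPM for each kilobase of the deposited gene length. That length is the union of exons, untranslated parts included, and RPKM over coding length was not run. The levels and their order below thus hold for the deposited length alone. Ahi1, the jouberin scaffold of the transition zone and a gene of Joubert syndrome, had the highest level in all 4 groups. Its mean was 28.2 ± 3.46 RPKM (SD, n = 3) in control brain and 27.7 ± 1.32 in SMA brain, against 48.1 ± 2.45 in control and 50.9 ± 1.67 in SMA spinal cord. B9d1, a B9 domain protein of the MKS module, came next at 26.5 ± 1.65, 18.1 ± 2.06, 17.1 ± 1.23 and 15.8 ± 2.26 RPKM in the same order of groups. Tmem107, a transmembrane protein that recruits other members of the MKS module, had 6.58 ± 1.69, 6.85 ± 2.31, 8.22 ± 1.71 and 5.22 ± 0.145 RPKM. Cep290, the large linker protein, was lowest at 1.93 ± 0.347, 2.51 ± 0.342, 2.33 ± 1.23 and 1.24 ± 0.566 RPKM.

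The order Ahi1, B9d1, Tmem107, Cep290 held in each of the 4 groups. Neighbours in that order did not overlap between libraries, except that Ahi1 and B9d1 overlapped in control brain, where the ratio of their means was 1.07. That ratio was 1.53 in SMA brain, and in spinal cord it was 2.82 in control and 3.22 in SMA embryos. Percentiles were taken among the 10481 genes of the count table, which had all passed the authors' expression filter. Ahi1 lay between the percentiles 65.9 and 86.0, B9d1 between 43.3 and 70.3, Tmem107 between 13.1 and 31.5 and Cep290 between 4.08 and 9.86. Among these filtered genes, Cep290 thus had low density along a long deposited length of 11617 bases. Its counts (35 to 571 in a library) nevertheless exceeded those of Tmem107 (21 to 147) in every library but SMA spinal cord library 2.

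For SMA against control, the libraries of each tissue were normalized on their own, and the study's thresholds were used, a log2 fold change of 0.5 or more in size at an unadjusted p below 0.05. In brain, 1 of the 4 genes passed, B9d1, against a background of 1.53% of the 10481 genes tested. In spinal cord 1 of 4 passed, Tmem107, against 0.983%. Each count is 1 gene among 4, both were lower in SMA, and neither had a small p after adjustment over all genes. The background shares are those of the fits made here, 160 genes in brain and 103 in spinal cord. The paper reports slightly fewer genes in brain and many more in spinal cord at these cut-offs.

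B9d1 footprints in brain numbered 43.7, 40.2 and 39.97 CPM in control libraries 1 to 3 (413, 194 and 166 counts). In SMA libraries 1 to 3 they numbered 25.01, 30.9 and 30.005 CPM (92, 168 and 109 counts). All 3 SMA libraries lay below all 3 control libraries, a separation in that direction that 6.41% of the 9409 genes averaging 20 counts or more showed. The mean fell from 41.3 ± 2.07 to 28.6 ± 3.16 CPM (SD, n = 3), a 1.44-fold lower level with a log2 fold change of -0.53 (SE 0.132, 95% interval -0.81 to -0.24). B9d1 ranked 13 of all genes by p in brain, with an unadjusted p of 0.00159 and an adjusted p of 0.902 in edgeR. The exact two-sided permutation test gave p = 0.1, the smallest that 3 against 3 libraries allow. Without control library 1 the log2 fold change was -0.48 (unadjusted p 0.00782) and without SMA library 1 it was -0.44 (unadjusted p 0.00966), both short of the fold threshold. SMA library 1, with the lowest B9d1 level, was also the brain library with 33.6 CPM of Apob, whose part was not tested. Beside the lower B9d1, Nes ran from 248 to 330 CPM in SMA brain against 349 to 390 in control brain. The other progenitor markers followed did not fall alike, with log2 fold changes of 0.17 for Fabp7 (edgeR, unadjusted p 0.186) and -0.05 for Slc1a3 (unadjusted p 0.644). The summed dividing cell markers ran from 330 to 374 against 375 to 427 CPM, although each of those 4 markers had an unadjusted p above 0.05. The part of these markers in the B9d1 difference was not tested.

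In spinal cord, B9d1 stood at 28.9, 25.4 and 28.9 CPM in the control libraries and at 21.8, 25.8 and 28.8 CPM in the SMA libraries. The groups overlapped. The means were 27.7 ± 2.02 and 25.4 ± 3.52 CPM (SD, n = 3), and the log2 fold change of -0.13 had a 95% interval of -0.46 to 0.21 (edgeR, adjusted p 0.800).

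Tmem107 footprints in spinal cord reached 11.1, 14.0 and 9.32 CPM in control libraries 1 to 3 (142, 147 and 97 counts). In SMA libraries 1 to 3 they reached 7.13, 7.48 and 7.07 CPM (57, 38 and 43 counts). All SMA libraries lay below all control libraries and within a narrow range, a separation that 7.16% of 9919 genes showed in that direction. The mean fell from 11.5 ± 2.39 to 7.23 ± 0.223 CPM (SD, n = 3), which is 1.59-fold lower. The log2 fold change was -0.67 (SE 0.197, 95% interval -1.13 to -0.20), with an unadjusted p of 0.0117 and an adjusted p of 0.684 in edgeR. The exact two-sided permutation p was 0.1. Without control library 2, the highest of the 6, the log2 fold change was -0.496 (unadjusted p 0.0455), just under the fold threshold. Without control library 1, the one with the highest Otx2 level of the 6, it was -0.69 (unadjusted p 0.0211), and without SMA library 1, the one richest in Apob, it was -0.66 (unadjusted p 0.0309). Beside the lower Tmem107, Nes ran from 111 to 139 CPM in SMA spinal cord against 150.2 to 168 in control. The other progenitor markers followed went the other way, Slc1a3 from 242 to 297 against 218 to 241 CPM and Fabp7 from 296 to 423 against 227 to 318 CPM. Fabp7 overlapped between the groups (log2 fold change 0.32, edgeR, unadjusted p 0.0980). The summed dividing cell markers ran from 55.0 to 97.0 CPM in SMA spinal cord against 69.9 to 274 in control, where library 1 was highest. The groups overlapped. All 4 of those markers had a lower fitted level in SMA (median log2 fold change -0.88), each at an unadjusted p above 0.05 in edgeR. The part of these markers in the Tmem107 difference was not tested.

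In brain, Tmem107 had 10.05, 10.2 and 6.26 CPM in the control libraries and 5.71, 10.8 and 11.3 CPM in the SMA libraries, resting on 21 to 95 counts. Each group held a library near 6 CPM and the others near 10 or 11. The log2 fold change was 0.06 with a 95% interval of -0.55 to 0.67 (edgeR, adjusted p 0.985).

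Cep290 footprints in brain stood at 24.6, 17.6 and 23.6 CPM in control libraries 1 to 3 and at 24.5, 31.4 and 30.8 CPM in SMA libraries 1 to 3. The lowest SMA library lay within the control range, and the other two lay above it. The mean was 21.9 ± 3.79 CPM in control and 28.9 ± 3.85 CPM in SMA (SD, n = 3). The log2 fold change of 0.39 (SE 0.167, 95% interval 0.03 to 0.75) had an unadjusted p of 0.0354 and an adjusted p of 0.902 in edgeR, and passed the fold threshold of 0.3 that the study used for pathways but not that of 0.5. The unadjusted p was above 0.05 when control library 2 (p 0.146), SMA library 2 (p 0.125) or SMA library 3 (p 0.0960) was left out of the edgeR fit. With all 6 brain libraries kept it was also above 0.05 in DESeq2 (p 0.0653), with library size alone (p 0.0546) and in the edgeR fit of 12 libraries (p 0.342).

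In spinal cord, Cep290 reached 44.5, 22.1 and 16.5 CPM in control libraries 1 to 3 and 18.8, 6.89 and 17.9 CPM in SMA libraries 1 to 3. Control library 1 was the highest of the 6 libraries and SMA library 2 (35 counts) the lowest. The means were 27.7 ± 14.8 and 14.5 ± 6.62 CPM (SD, n = 3), and the groups overlapped. The log2 fold change was -0.92 (SE 0.476, 95% interval -2.05 to 0.20), with an unadjusted p of 0.0926 and an adjusted p of 0.684 in edgeR. Without control library 1 it was -0.40 (unadjusted p 0.365), and without SMA library 2 it was -0.60 (unadjusted p 0.213). Control library 1 is the library whose Otx2 and dividing cell markers lay above those of the other spinal cord libraries, and the part of these markers in its Cep290 level was not tested. Its Cep290 level also lay above all 6 brain libraries, which ran from 17.9 to 31.7 CPM when the 12 libraries were normalized together.

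**Figure D2:**
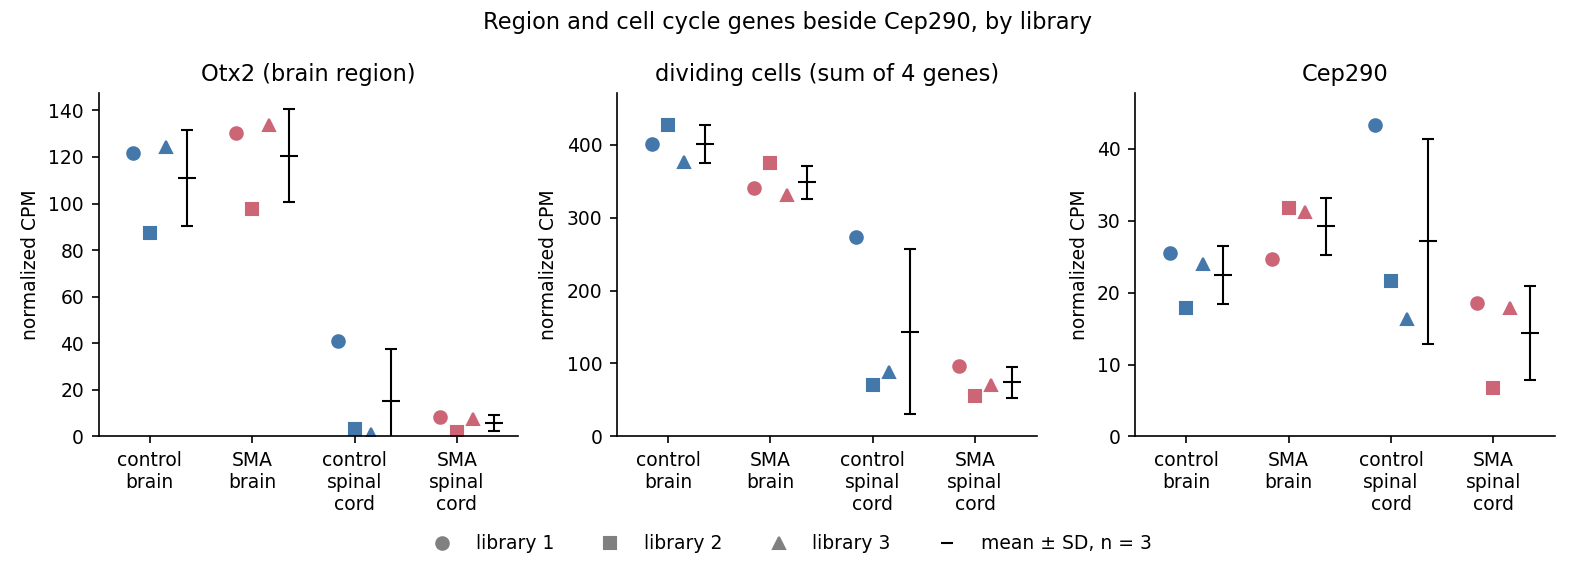
Normalized CPM (vertical axes, from 0) of Otx2, of 4 dividing cell markers summed (Top2a, Kif11, Cdk1 and Aurkb) and of Cep290 in each of the 12 libraries, normalized together, with control in blue, SMA in red and black bars for the mean ± SD of 3 libraries, drawn down to 0 only. Control spinal cord library 1 lies above the other 5 spinal cord libraries in all 3 panels, with 41.1 CPM of Otx2, 274 CPM of dividing cell markers and 43.3 CPM of Cep290.

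Ahi1, with 685 to 4471 counts in a library, was the most precisely measured of the 4 genes. In brain it stood at 213, 169.7 and 201 CPM in the control libraries and at 186, 191 and 203 CPM in the SMA libraries. In spinal cord it stood at 348, 327 and 360.4 CPM in the control libraries and at 367, 349.6 and 369 CPM in the SMA libraries. The groups overlapped in both tissues. The log2 fold change was -0.01 in brain (95% interval -0.23 to 0.21, edgeR, adjusted p 0.995) and 0.07 in spinal cord (95% interval -0.09 to 0.23, adjusted p 0.784), so the intervals held no change as large as the fold threshold of 0.3 in either tissue.

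**Figure D3:**
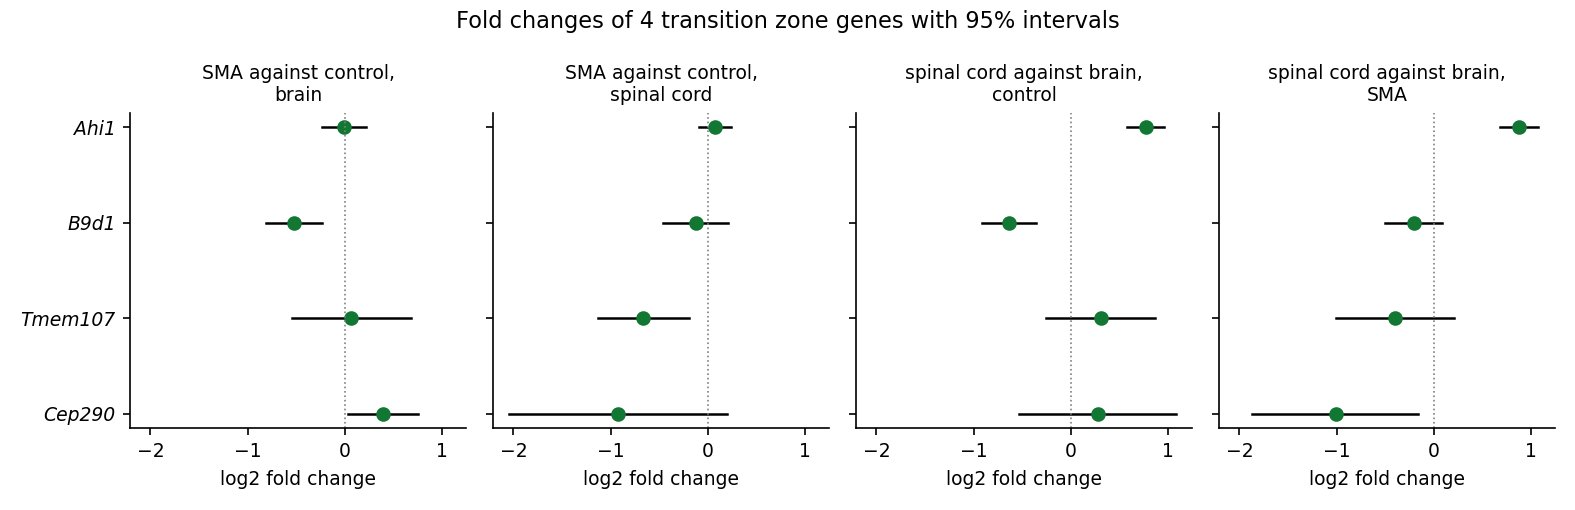
Log2 fold changes (horizontal axes) of Ahi1, B9d1, Tmem107 and Cep290 with 95% intervals, for SMA against control in each tissue (6 libraries each) and for spinal cord against brain in each genotype (12 libraries). The intervals of Ahi1 are narrow and lie around 0 for genotype and above 0 for tissue, while those of Cep290 are the widest in 3 of the 4 panels.

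Spinal cord was compared with brain in a fit of all 12 libraries, where a gene passed at an adjusted p below 0.05. In control embryos, 1 of 4 genes was higher in spinal cord, Ahi1, against 20.1% of all genes, and 1 was lower, B9d1, against 21.1%. In SMA embryos, 1 of 4 was higher, Ahi1 again, against 21% of all genes, and 0 were lower against 19.3%. With 4 genes, these counts do not stand apart from those shares.

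Ahi1 was 1.70-fold higher in spinal cord of control embryos, at 338.6 ± 17.2 against 198.7 ± 24.4 CPM (SD, n = 3). The log2 difference was 0.77 (SE 0.0886, 95% interval 0.57 to 0.96, edgeR, adjusted p 5.76e-05). In SMA embryos it was 1.83-fold higher, with a log2 difference of 0.87 (SE 0.0898, 95% interval 0.68 to 1.07, edgeR, adjusted p 2.31e-05). No spinal cord library overlapped a brain library, but the share of all genes so separated between the tissues was not counted.

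B9d1 differed the other way in control embryos, at 27.2 ± 1.97 CPM in spinal cord and 42.1 ± 2.63 CPM in brain (SD, n = 3). The log2 difference was -0.63 (SE 0.126, 95% interval -0.91 to -0.36, edgeR, adjusted p 0.00195), or 1.55-fold lower in spinal cord. In SMA embryos the levels were 25.2 ± 3.59 and 28.9 ± 3.28 CPM and overlapped, with a log2 difference of -0.21 (95% interval -0.51 to 0.08, edgeR, adjusted p 0.229). Without control spinal cord library 1 the control difference was -0.66 (edgeR, adjusted p 0.00432).

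Cep290 stood at 14.4 ± 6.58 CPM in spinal cord and 29.2 ± 3.98 CPM in brain of SMA embryos (SD, n = 3). The libraries did not overlap, and the share of all genes so separated was again not counted. The log2 difference was -1.005 (SE 0.392, 95% interval -1.87 to -0.16), with an adjusted p of 0.0562 in edgeR. With the replicate number as a block it was -1.08 at an adjusted p of 0.0313 in edgeR, although a pairing of libraries by number was not shown. Without SMA spinal cord library 2 it was -0.70 (edgeR, adjusted p 0.130). In control embryos the log2 difference was 0.27 (95% interval -0.54 to 1.08, edgeR, adjusted p 0.577), and it was -0.25 without control spinal cord library 1. Tmem107 gave 0.31 in control (95% interval -0.26 to 0.86, edgeR, adjusted p 0.368) and -0.40 in SMA (95% interval -1.01 to 0.21, adjusted p 0.268).

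Whether the effect of genotype differed between tissues was tested as the SMA effect in spinal cord minus that in brain. At an unadjusted p below 0.05, 2 of 4 genes were found, Cep290 and B9d1, against 2.38% of all genes. The difference was -1.28 for Cep290 (SE 0.540, unadjusted p 0.0347) and 0.43 for B9d1 (SE 0.180, unadjusted p 0.0360), with an adjusted p of 1 for both in edgeR. For Cep290 it was -0.76 (unadjusted p 0.110) without control spinal cord library 1, and for B9d1 0.32 (unadjusted p 0.108) without SMA spinal cord library 3. For Tmem107 it was -0.70 (unadjusted p 0.0905) and for Ahi1 0.11 (unadjusted p 0.408), so the fall of Tmem107 in spinal cord was not shown to differ from its change in brain.

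**Figure D4:**
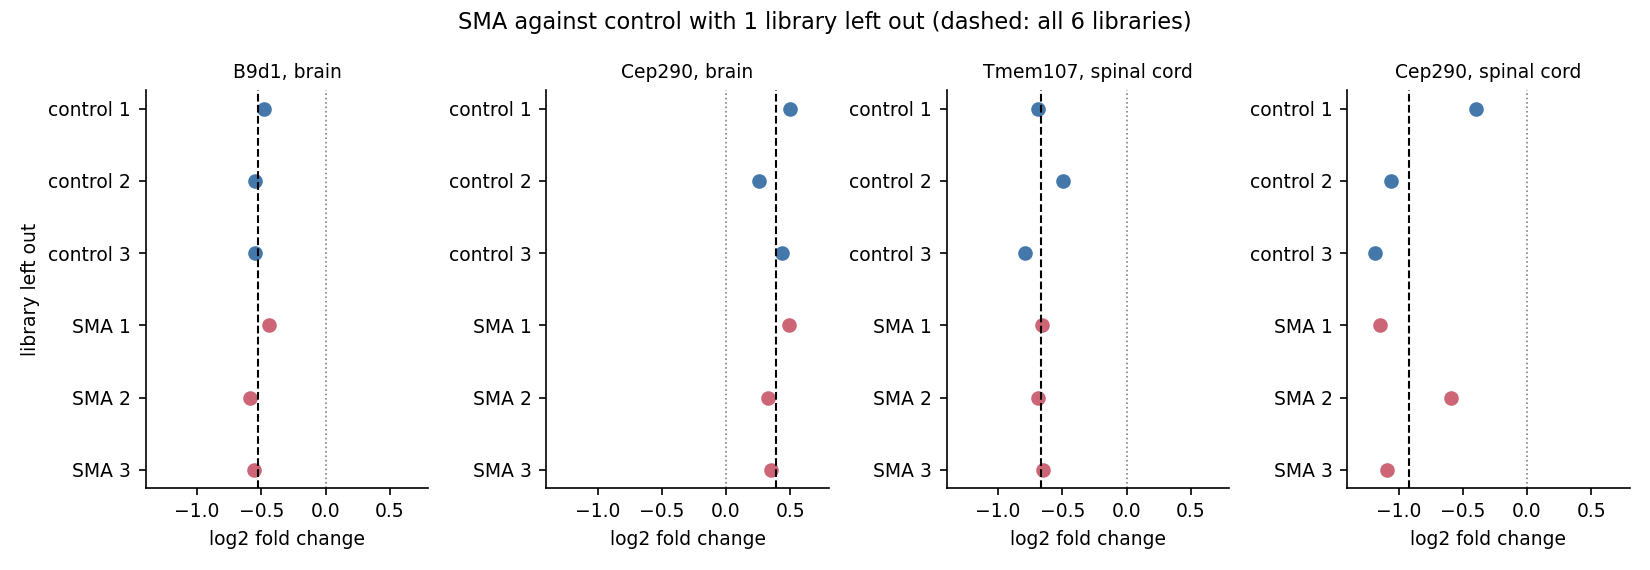
Log2 fold change of SMA against control (horizontal axes) for B9d1 and Cep290 in brain and Tmem107 and Cep290 in spinal cord when the library named on the vertical axis was left out, with left-out control libraries in blue, left-out SMA libraries in red, a dashed line for all 6 libraries and a dotted line at 0. B9d1 stays between -0.59 and -0.44 and Tmem107 between -0.79 and -0.50, while Cep290 in spinal cord moves from -1.18 to -0.40 and is nearest 0 without control library 1.

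Beyond the gate itself, 109 genes of the basal body, intraflagellar transport, the BBSome, other transition zone modules and the ciliary membrane with its GTPases were listed, of which 17 could be followed by name. These were 7 of intraflagellar transport, 7 of the ciliary membrane with its GTPases, 2 of the basal body and 1 of the BBSome. No gene of the other transition zone modules could be followed. In brain 8 of the 17 had a lower fitted level in SMA and their median log2 fold change was 0.01, and in spinal cord 11 were lower with a median of -0.11, beside medians over all genes of 0.00 and -0.01. Among the brain values, 2 of these ciliary genes had a lower SMA value at an unadjusted p below 0.05, against 3.28% of all genes. These were Ptch1, the Hedgehog receptor that leaves the cilium on ligand binding (log2 fold change -0.46, unadjusted p 0.00893), and Rab23, a GTPase that restrains Hedgehog signalling (-0.41, unadjusted p 0.0227). In brain 1 was higher, against 1.77% of all genes, namely Rab11a, a GTPase of recycling endosomes that takes part in ciliary membrane assembly (0.26, unadjusted p 0.0241). In spinal cord 1 of the 17 was lower, against 3.26% of all genes, and 0 were higher, against 3.73%. The lower gene was Fbf1, a protein of the distal appendages that anchor the basal body (-0.29, unadjusted p 0.0287). Their lowest adjusted p was 0.684 in edgeR. None of the 7 intraflagellar transport genes followed (Cluap1, Ift20, Ift22, Ift43, Ift46, Ift52 and Kif3a) and not the BBSome subunit Ttc8 passed in either tissue.

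Among 1958 named genes with a mean of at least 1 CPM, the profile most like the mean of the 4 genes' standardised log2 CPM over the 12 libraries was that of Polr2a, with Pearson r = 0.97 (0.94 over the 6 brain and 0.99 over the 6 spinal cord libraries). Ppp2r5e followed with 0.86 (0.85 and 0.89), then Pacsin2 with 0.86 (0.89 and 0.84), Ctc1 with 0.86 (0.83 and 0.92) and Supt6 with 0.84 (0.78 and 0.94). The 4 genes did not share a profile among themselves. Their pairwise r over the 12 libraries ran from -0.62 (Ahi1 and B9d1) to 0.36 (Cep290 and Tmem107), so their mean cannot stand for all 4. These correlations rest on the same libraries and their depth and are given as descriptions.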

How the data were processed

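Ribosome footprints of 12 libraries were used. Per the labels, cutadapt 4.1 and STAR 2.5.3a were run with GRCm38.p6. In the study's methods, rRNA and tRNA reads were removed and reads with up to 5 alignments were kept. Reads shared with similar genes may thus count for several genes. The cut-off of the authors' filter was the 80th percentile of FPKM in each replicate. A gene was dropped if every replicate of a condition (control or SMA) fell under it. The deposited values are raw counts for each gene, with a gene length from the union of exons. The counting tool is not given in the sources used here.

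Counts were tested over all 10481 genes with edgeR 4.0.16 in R 4.3.3 (TMM, glmQLFit, glmQLFTest, Benjamini-Hochberg adjustment), within a tissue for genotype and over 12 libraries for tissue and interaction. Intervals are 95% intervals from the fit. The genotype test within each tissue was tested on simulated data, and the tissue and interaction tests were not. Alternatives were DESeq2 1.42.0, other size factors, an offset for the trend on counts per base, filterByExpr, 1 fit over 12 libraries, a replicate block, a fold threshold of 0.3 and leaving out each library. The p-values for genotype set a difference against the spread between libraries within the 2 groups of a tissue, 3 libraries a group. Those for tissue and interaction used 1 estimate of the spread shared by all 12 libraries. Depth is given in the report.

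Same-numbered libraries were checked for shared deviations from their group means. The correlations were 0.33, 0.10 and 0.14 between SMA brain and SMA spinal cord, all above 0.1, and in no other pair of groups were all above it. Between unlike-numbered SMA libraries, brain 3 with spinal cord 2 gave 0.19 and brain 2 with spinal cord 3 gave 0.14. The other unlike-numbered SMA pairs were negative. A pairing by number was thus not shown, and with 3 libraries a group this check cannot exclude it. The paper gives 3 embryos each for control and SMA, and does not state whether both tissues came from the same embryos. The main tests for tissue and interaction treated the libraries as unpaired.

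The members and lists were chosen with earlier results of these data known. All 10 members are named. A listed brain region marker is not reported here. Genes of other lists are named at an unadjusted p below 0.05, and likeness names the 5 highest correlations. Symbols came from the study's supplement (1999 genes) and, for B9d1, from the choice of members. Figures used matplotlib 3.10.9.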

Additional observations from a re-analysis of the deposited data

Results flagged for a closer look

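The SMA effect differed between spinal cord and brain at an unadjusted p below 0.05 for Cep290 and for B9d1, and for neither after adjustment over all genes. For Cep290 the difference was -1.28 on the log2 scale (edgeR interaction test, unadjusted p 0.0347, adjusted p 1), with a 95% interval of -2.47 to -0.11, and ranged from -1.54 to -0.76 when 1 library was left out, with the unadjusted p above 0.05 without control brain library 2 (0.0769) or 3 (0.0505), SMA brain library 2 (0.0671) or 3 (0.0633), control spinal cord library 1 (0.110) or SMA spinal cord library 2 (0.0558). For B9d1 the difference was 0.43 (edgeR interaction test, unadjusted p 0.0360, adjusted p 1), with a 95% interval of 0.03 to 0.82, and ranged from 0.32 to 0.54 when 1 library was left out. Its unadjusted p was above 0.05 under DESeq2 (0.0635) and library size alone (0.0514), and without control brain library 1 (0.0841), SMA brain library 1 (0.0886), control spinal cord library 2 (0.0831) or SMA spinal cord library 2 (0.0659) or 3 (0.108).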

How the results depend on the processing

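In brain the number of the 4 genes past the thresholds was 1 under every alternative except a fold threshold of 0.3, which gave 2 by adding Cep290, and leaving out 1 library, which gave 0 to 1. In spinal cord it was 2, with Cep290 added, under DESeq2, under 1 fit over 12 libraries and with the replicate block, and 0 to 2 when 1 library was left out. For spinal cord against brain in SMA it was 2, again with Cep290, under DESeq2, after an offset for the trend with counts per base and with the replicate block, and 1 to 2 when 1 library was left out. Leaving out 1 library turned the sign of Ahi1 in brain (-0.102 to 0.0623) and of Tmem107 in brain (-0.11 to 0.29), both near 0. The control tissue difference of Cep290 was -0.020 with that offset and -0.25 to 0.53 when 1 library was left out. The cause was not tested. With the replicate block, Cep290 in spinal cord had a log2 fold change of -0.92 (edgeR, unadjusted p 0.0476), although same-numbered control and SMA libraries did not deviate together, and no other call changed beside those given. B9d1 kept its direction in brain and Tmem107 in spinal cord under all alternatives run. In brain, Cep290 lost its unadjusted p below 0.05 under DESeq2 (0.0653), library size alone (0.0546) and 1 fit over 12 libraries (0.342). RPKM over coding length was not run for want of a protein table. Over all genes, log2 fold changes correlated with counts per base (Spearman 0.248 over 9998 genes in brain, 0.313 over 10239 in spinal cord). Cep290 lay at the percentile 5.91 of counts per base, Tmem107 at 18.3, B9d1 at 57.3 and Ahi1 at 80.6. With the offset for that trend, Tmem107 in spinal cord had a log2 fold change of -0.58 (edgeR, unadjusted p 0.0224). B9d1 in brain had -0.52 (edgeR, unadjusted p 0.00132).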
